A study of Mus musculus with 12 samples.

Results

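The genes described here build, move along and anchor microtubules: tubulins, kinesin motors, the dynein motor with its dynactin complex, proteins of the microtubule ends, and centrosomal proteins. They were chosen by name from the deposited count table, as the protein-coding genes whose symbol starts with Kif, Dync, Dynl, Dctn, Tuba, Tubb, Tubg, Mapre, Clasp, Camsap or Cep followed by a digit, together with Nin, Dynll1, Dynll2 and Pafah1b1. The rule found 117 of the 54532 genes in the table, and 99 of these 117 passed the filter on low counts and were tested. They comprised 17 tubulins (12 tested), 11 kinesins of cell division (11 tested), 28 other kinesin genes (20 tested), 16 genes of dynein and dynactin (14 tested), 8 genes of microtubule end proteins (8 tested) and 37 centrosomal genes (34 tested). Among the 28 other kinesin genes, Kif1bp encodes a kinesin-binding protein and no motor. The 18 members left out had few or no reads: 12 had 0 counts in all 12 libraries (Tuba3a, Tuba3b, Tubb1, Kif12, Kif19a, Kif1a, Kif27, Kif28, Kif2b, Dync2li1, Cep112 and Cep126), and the other 6 summed to between 2 counts (Dync1i1) and 69 counts (Cep295nl) over the 12 libraries.

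Microtubules are hollow polymers of alpha- and beta-tubulin whose minus ends are held, in most dividing cells, by gamma-tubulin and other proteins of the centrosome. Kinesins mostly walk toward the growing plus ends, and cytoplasmic dynein, which works with dynactin and Lis1 (the product of Pafah1b1), walks toward the minus ends. In differentiating epidermal cells microtubules leave the centrosome and gather under the plasma membrane at the cell cortex. This step is known to need desmoplakin, the protein that ties desmosomes to the cytoskeleton and that draws ninein (Nin) and other centrosomal proteins to the cortex.

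The 12 libraries were polyA RNA of ribosome-bearing fractions from mouse keratinocytes with the genotype label WT DP-BirA(1-584), in which residues 1 to 584 of desmoplakin are fused to the biotin ligase BirA. Confluent cells of every group were given calcium for differentiation and 2 microgram/mL doxycycline to switch on the fusion, then left unwounded or wounded, and then labelled with biotin for 16 h. Ribosome-bearing material from a sucrose gradient was passed over neutravidin: the bound part is called cortical, and the depleted remainder is called total. Each of the 4 groups, total and cortical from unwounded cells and total and cortical from wounded cells, had 3 libraries. All 4 groups carried the fusion, doxycycline and biotin, so no group measured binding to neutravidin without them, and the total fraction lacked what had bound. The titles call the 3 libraries of a group biological replicates but do not say what separated them, so a p-value measures the spread between these libraries. These are bulk samples, in which fewer cells of a type and less RNA per cell cannot be told apart.

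Library totals ran from 8980013 to 23457548 counts, and 98 to 103 of the 117 members had at least 1 count in a library. The keratinocyte label was met by its markers: 8 of 8 were at 1 CPM (counts scaled to a common library size, with TMM factors for composition) or more in all 12 libraries. Their summed level was 10900 to 12100 CPM in the total and 15400 to 15500 in the cortical fraction of unwounded cells, and 17600 to 20200 and 20900 to 21200 CPM in wounded cells. Of the markers of other cells, 0 of 7 fibroblast, 1 of 6 melanocyte, 1 of 6 immune and 0 of 4 endothelial genes reached 1 CPM in all 12, and Dcn, Tyr, Tyrp1, Lyz2, Adgre1 and Cdh5 were at 0. The immune list was carried by Cd68, and its summed level was 21 to 25.1 CPM in unwounded total, 17.8 to 20.9 in unwounded cortical, 43.2 to 58.7 in wounded total and 32.9 to 38.7 in wounded cortical. The part of either list in the results was not tested. A single library stood apart: wounded total replicate 1 had 13117 genes with a count against 14393 to 16867 in the other 11. Counts of called members, and several single members, are given with and without it. Genes outside the members are given with all 12 libraries only.

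The promoters of 3 tubulin genes are printed because 2 of them belong to isotypes that fell on wounding (Tuba1c and Tubb4b), while the other belongs to Tubb5, the most abundant tubulin. Tubb5 was not called in any comparison of the main fit (edgeR with TMM factors, all 12 libraries), although some alternative settings with all 12 libraries called it. Each is the 250 bases before the gene start that RefSeq gives, 5′ to 3′ on the gene's strand, on build GRCm38.p6, at chr15:99029641-99029890 (+) for Tuba1c, chr2:25224703-25224952 (-) for Tubb4b and chr17:35838302-35838551 (-) for Tubb5. Capitals mark every match, on either strand, to CCAAT (or ATTGG), the letters bound by the factor NF-Y, and to GGGCGG (or CCGCCC), the GC box bound by Sp1.
Tuba1c: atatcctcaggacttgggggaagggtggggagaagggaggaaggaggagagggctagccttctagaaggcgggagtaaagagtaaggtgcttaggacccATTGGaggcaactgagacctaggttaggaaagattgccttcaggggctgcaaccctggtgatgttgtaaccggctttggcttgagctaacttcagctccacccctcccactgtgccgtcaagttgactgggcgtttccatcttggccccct
Tubb4b: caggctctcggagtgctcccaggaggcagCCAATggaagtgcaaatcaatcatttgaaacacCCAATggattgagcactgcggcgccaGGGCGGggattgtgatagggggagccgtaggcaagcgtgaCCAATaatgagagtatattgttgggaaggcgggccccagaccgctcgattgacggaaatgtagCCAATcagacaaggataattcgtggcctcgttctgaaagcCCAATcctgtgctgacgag
Tubb5: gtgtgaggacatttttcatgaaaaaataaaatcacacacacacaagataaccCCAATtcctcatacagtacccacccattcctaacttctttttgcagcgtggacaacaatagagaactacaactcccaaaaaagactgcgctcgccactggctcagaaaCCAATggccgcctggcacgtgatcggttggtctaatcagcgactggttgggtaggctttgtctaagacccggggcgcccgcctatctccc
The Tubb4b promoter held 5 CCAAT matches and 1 GC box, that of Tubb5 2 CCAAT matches and 0 GC boxes, and that of Tuba1c 1 and 0. CCAAT was present in 33.8% and GGGCGG in 32.7% of all 32851 RefSeq promoter windows of 250 bases. A promoter sequence was found for 79 of the 99 tested members, and 45.6% of these held CCAAT and 62% GGGCGG. The 2 sets are unlike: each member was counted once, at the first start listed, and had passed the filter on low counts. The 32851 windows were limited neither to 1 start per gene nor to genes tested here. Whether the shares differ from those of other tested genes was not tested. All 3 printed windows thus held CCAAT, that of the isotype not called in the main fit included.

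Levels per gene length differed widely within each role. On the deposited FPKM scale (counts divided by gene length and library size, averaged over the 12 libraries), Tubb5 was at 422 and Tuba1b at 189, followed by Tubb4b at 128 and the gamma-tubulin gene Tubg1 at 125. The light-chain and dynactin genes Dctn3, Dynll1 and Dctn2 stood at 104, 85.3 and 68.6 FPKM, whereas the dynein heavy chain Dync1h1 was at 2.66 FPKM. Among kinesins, Kif1c, a transport motor, led with 44 FPKM and Kif22, a chromosome-binding motor of the spindle, had 20.6 FPKM. Cep170b, a relative of the centrosomal and microtubule-binding protein Cep170, was at 36.6 FPKM, above Cep131 at 6.01 FPKM, and ninein was at 0.195 FPKM. The end-binding genes Mapre3 and Mapre1 had 22.1 and 17.6 FPKM. Near-identical coding sequences of the tubulin isotypes, and of Dynll1 and Dynll2, could have split or lost fragments in the authors' counting, whose treatment of such reads is not given in the sources used here.

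The first comparison set the neutravidin-bound (cortical) fraction of unwounded cells against the depleted remainder (total). Centrosomal genes Cep170b, Cep162 and Cep192 and the kinesin Kif26a were more abundant in the cortical than in the total fraction, by 4.35-fold, 3.72-fold, 2.02-fold and 3.05-fold, whereas the small subunits of dynein and dynactin were less abundant. Of the 99 members tested, 20 (20.2%) differed at an adjusted p under 0.05 (edgeR's quasi-likelihood test, Benjamini-Hochberg adjustment over all 13571 genes tested), against 14.2% of all genes tested. Cortical levels were higher for 14 (6.62% of all genes tested were) and lower for 6 (7.59% of all genes tested). The median log2 difference of the members was 0.08, beside 0.00 for all genes tested. Fractions without overlap were common: in 2323 of the 13571 genes tested every cortical library was above every total one, and in 2587 every one was below. Scaled by library size alone, which put the median of all genes at 0.19, the members called were 19 higher and 2 lower (15.1% of all genes tested were called). With the trend on coding length removed they were 5 higher and 2 lower (9.81% of all protein-coding genes tested were called).

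**Figure D1:**
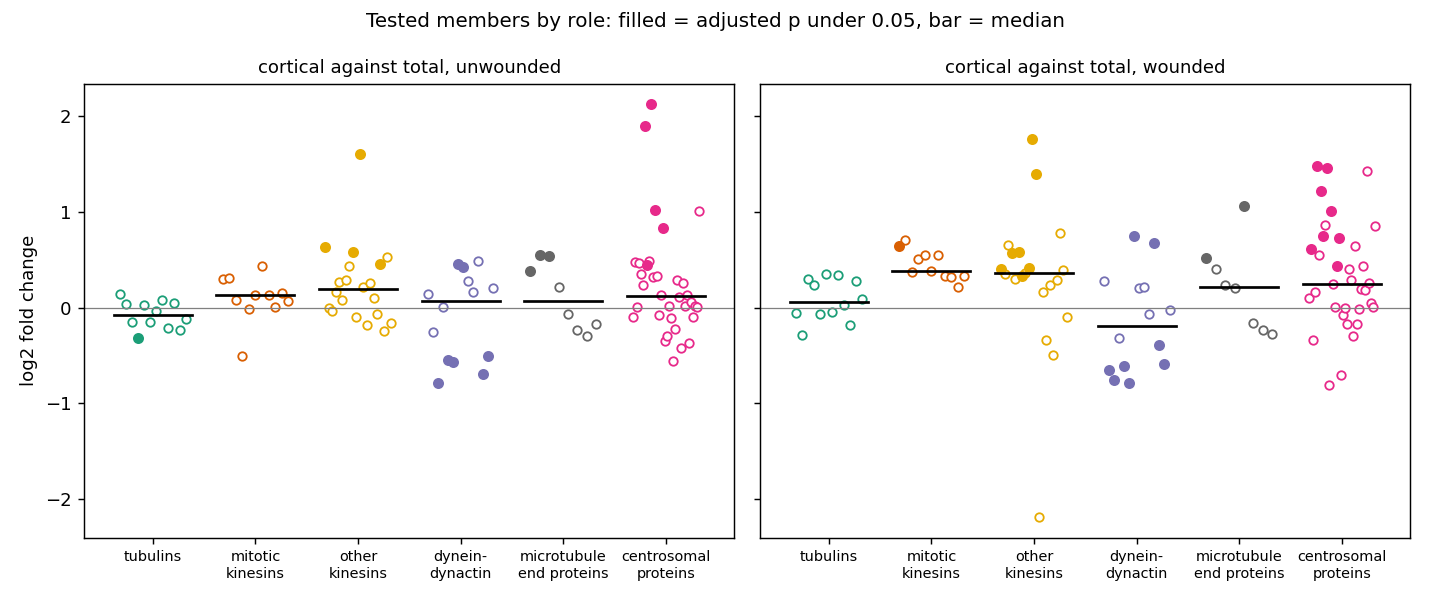
Log2 fold change of cortical against total fraction (vertical axis) for the 99 tested members by role, in unwounded cells (left) and wounded cells (right); filled points had an adjusted p under 0.05 and bars are medians. Called centrosomal, kinesin and end-protein genes all lie above 0, and called dynein and dynactin genes lie on both sides of it.

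Cep170b (ENSMUSG00000072825, chr12:112720455-112746592, mm10) had the largest cortical excess of all members. Its levels were 135, 117 and 142 CPM in unwounded total replicates 1 to 3 and 566, 569 and 582 CPM in unwounded cortical, 121, 116 and 147 CPM in wounded total and 324, 364 and 363 CPM in wounded cortical. Every cortical library was above every total library, by a wide margin in unwounded and a smaller one in wounded cells, and the total libraries of the 2 conditions overlapped. The log2 difference was 2.12 (SE 0.12, adjusted p = 3.93e-09, edgeR).

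Cep162, a protein of microtubules at the base of the cilium, and Cep192, a scaffold that recruits mitotic kinases and pericentriolar matrix to centrioles, followed. Cep162 (ENSMUSG00000056919, chr9:87189577-87255536) was at 9.08, 7.79 and 9.25 CPM in unwounded total and 26.9, 38.5 and 32.1 CPM in unwounded cortical, a log2 difference of 1.90 (SE 0.21, adjusted p = 3.9e-05). Cep192 was at 47.6, 36.9 and 40.4 CPM in unwounded total and 77.6, 80.8 and 94.9 CPM in unwounded cortical, a log2 difference of 1.02 (SE 0.15, adjusted p = 0.000329). For both genes the lowest cortical library lay above the highest total library. Cep350 (0.83) and Cep164 (0.45), which act at centriolar microtubules and at the distal appendages of the mother centriole, were the other 2 of the 5 centrosomal genes called among 34 tested, all 5 of them higher. The 5 were 14.7% of those tested, beside 14.2% of all genes tested called in either direction and 6.62% called higher. The summed centrosomal level was 87.4 ± 5.86 FPKM (mean ± SD, n = 3) in unwounded total and 154 ± 4.02 in unwounded cortical, of which Cep170b alone gave 16.1 and 71.3 FPKM.

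Ninein, which anchors minus ends at the mother centriole and at desmosomes, was scarce. Nin (ENSMUSG00000021068, chr12:70011435-70113717) had 745 counts over the 12 libraries, and stood at 3.73, 3.16 and 2.71 CPM in unwounded total, 8.37, 5.77 and 5.08 in unwounded cortical, 0.593, 1.68 and 1.78 in wounded total and 3.59, 1.57 and 2.11 in wounded cortical. The unwounded cortical libraries were all above the unwounded total ones, as they were for 2323 of the 13571 genes tested, while the wounded groups overlapped. The log2 differences of cortical against total, 1.01 (SE 0.44, adjusted p = 0.15) and 0.85 (SE 0.46, adjusted p = 0.245), did not pass the threshold. Without wounded total replicate 1 the unwounded difference passed it (log2 1.01, adjusted p = 0.0492). Nin was also called in unwounded cells when the fit held only the groups compared. Wounded and unwounded cells differed by -1.24 (adjusted p = 0.0814) in the total and -1.40 (adjusted p = 0.105) in the cortical fraction, also short of the threshold. Without wounded total replicate 1 the cortical change was log2 -1.40, adjusted p = 0.019. With all 12 libraries, DESeq2 called Nin lower on wounding in both fractions. Library size scaling called it lower in the total fraction, and the fit of only the groups compared called it in the cortical fraction. Limma on FPKM called it in neither.

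Of 31 kinesin genes tested, 4 (12.9%) were called in unwounded cells, against 14.2% of all genes tested. All 4 were higher in the cortical fraction, as were 6.62% of all genes tested. Kif26a (ENSMUSG00000021294, chr12:112146208-112181747), an atypical kinesin that lacks motor activity, was at 14.8, 10.6 and 12.7 CPM in unwounded total and 41.6, 34.6 and 40.1 CPM in unwounded cortical, with no overlap, and its log2 difference was 1.61 (SE 0.28, adjusted p = 0.00146). Kif13a, an endosomal transport motor (0.63), Kif21b, which limits microtubule growth (0.58), and Kif5b, the widespread conventional kinesin heavy chain (0.45), had smaller log2 differences. Of the 11 kinesins of cell division, edgeR called 0 here (1 at an unadjusted p under 0.05, and 0 with DESeq2), with a median of 0.13. All 3 minus-end binding Camsap genes were called higher in the cortical fraction: Camsap2 (0.54), Camsap3 (0.54) and Camsap1 (0.38). In that order their calls were kept under 14, 19 and 11 of the 24 alternative settings. All 3 calls were lost with the trend on gene length or on coding length removed. Camsap3 overlaps Xab2 on the other strand, and the libraries kept no strand, so reads of that overlap could not be assigned to 1 of them.

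Dynein and dynactin genes divided by subunit. The heavy chain Dync1h1 (log2 difference 0.46, SE 0.13) and the intermediate chain Dync1i2 (0.42, SE 0.11) were higher in the unwounded cortical fraction, with adjusted p = 0.023 and 0.0181. Dctn3, Dynll1, Dctn6, Dctn5 and Dynll2 were lower, with log2 differences of -0.78, -0.70, -0.56, -0.54 and -0.51. With library size scaling these 5 kept their sign, and Dctn3 and Dynll1 kept their call. Dctn3 encodes a small subunit of the dynactin shoulder, Dctn5 and Dctn6 encode small subunits of its pointed end, and Dynll1 and Dynll2 encode the small light chain of dynein, which also binds many other proteins. Dctn3 (ENSMUSG00000028447, chr4:41714798-41723170) was at 126, 138 and 107 CPM in unwounded total and 66.7, 67.6 and 82 CPM in unwounded cortical (adjusted p = 0.000977), and all 3 cortical libraries were below the lowest total library. Dynll1 (ENSMUSG00000009013, chr5:115297110-115300999) was at 522, 605 and 415 CPM in unwounded total and 313, 301 and 338 CPM in unwounded cortical (adjusted p = 0.00173), again without overlap. Pafah1b1 (ENSMUSG00000020745, chr11:74673949-74724670), the gene of Lis1, differed by 0.20 (SE 0.10, adjusted p = 0.207).

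**Figure D2:**
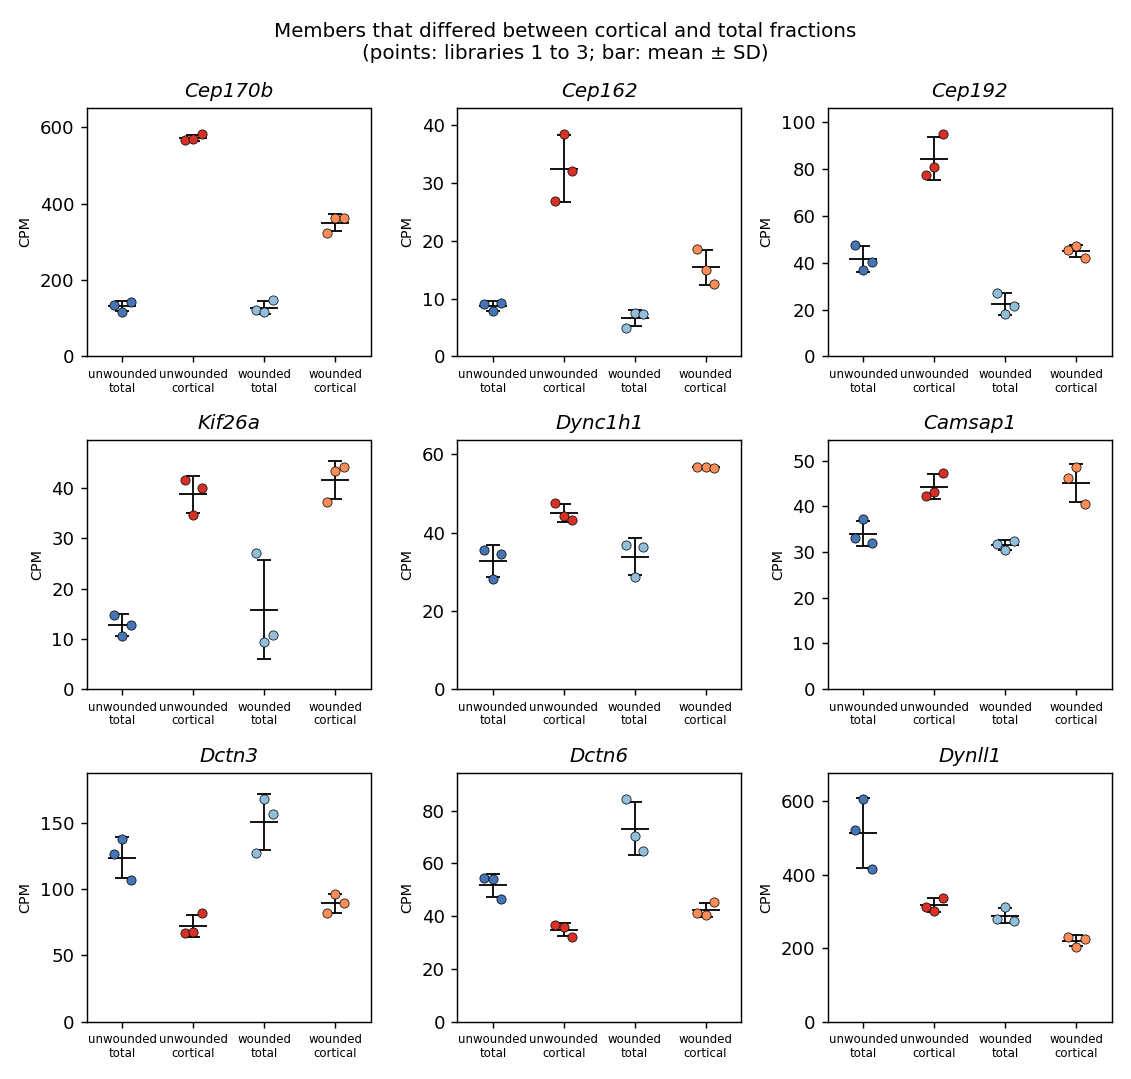
Level in CPM (vertical axis, from 0) of 9 members in each of the 12 libraries by group, with the group mean and SD. Cep170b lies between 566 and 582 CPM in unwounded cortical libraries and between 117 and 142 CPM in unwounded total libraries, and Dctn3, Dctn6 and Dynll1 are lower in cortical libraries.

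Tubulins differed little between the fractions of unwounded cells. Of 12 tested, Tuba4a alone was called, with a log2 difference of -0.32 (SE 0.10, adjusted p = 0.0406). It overlaps Stk16 on the other strand, and its call was lost under 15 of the 24 alternative settings. The log2 differences of the 12 ran from -0.32 to 0.14, with a median of -0.08, which turned to 0.11 with library size scaling. Their summed level was 1263 ± 52.5 FPKM in unwounded total and 1235 ± 19.8 FPKM in unwounded cortical (mean ± SD, n = 3).

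The cortical-to-total difference moved with coding length, in dynein and dynactin and in the whole table. Across the 11482 protein-coding genes tested, longer coding sequences went with larger cortical-to-total differences (Spearman's rho 0.477 in unwounded and 0.476 in wounded cells), and across the 99 members the rho was 0.662 and 0.658. Across the 14 dynein and dynactin genes it was 0.876 and 0.845. These describe genes that share the same libraries and are not independent replicates. Dync1h1 encodes 4644 residues and Dync2h1 4313, whereas Dctn3 encodes 186, Dctn6 195, Dctn5 182 and Dynll1 and Dynll2 89 each. The median coding sequence of the members was 2430 bases, against 1383 bases for all protein-coding genes tested. With a smooth trend on coding length removed from each library, an alternative added after seeing the data, 7 of the 20 unwounded calls remained (Cep170b, Cep162, Cep192, Kif26a, Dync1i2, Dctn3 and Tuba4a). No other member was called then, so 7 of the 99 members were called beside 9.81% of all protein-coding genes tested, and the members' share was no longer above that of all genes. Dync1h1 then stood at -0.03 (adjusted p = 0.938) and Cep170b at 1.82 (adjusted p = 4.99e-11).

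**Figure D3:**
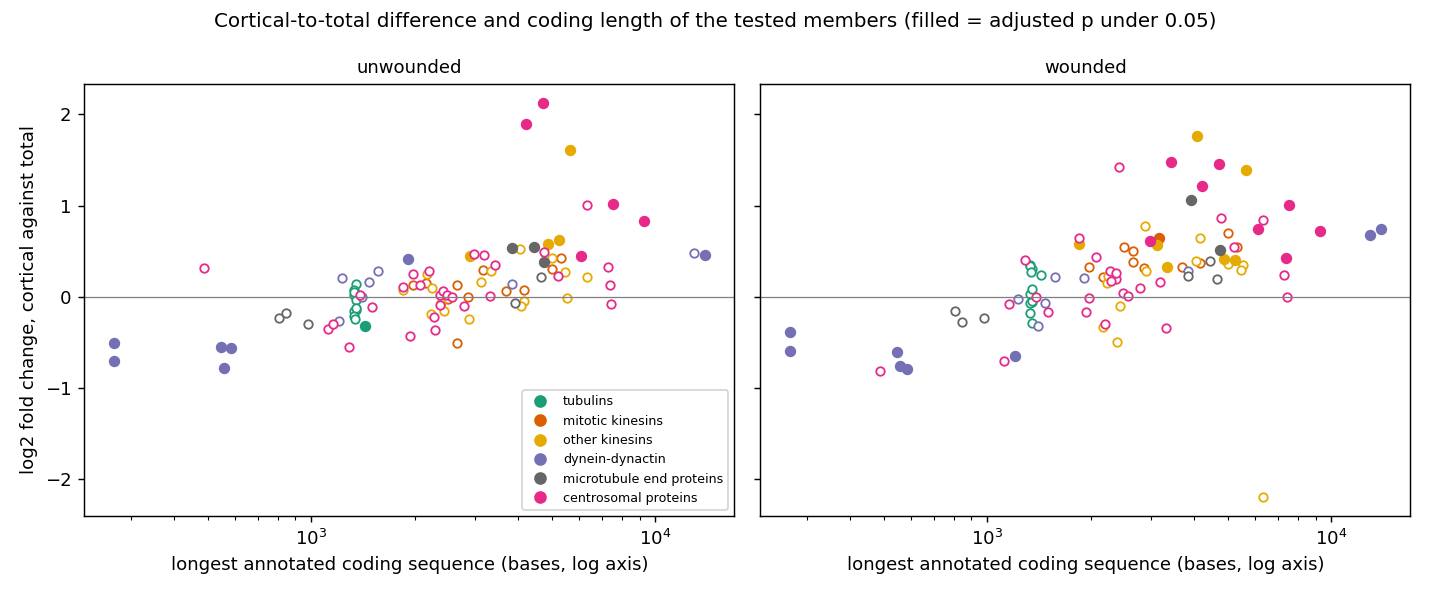
Log2 fold change of cortical against total fraction (vertical axis) against the length of the longest annotated coding sequence in bases (horizontal log axis) for the 99 tested members, in unwounded cells (left) and wounded cells (right), coloured by role and filled where the adjusted p was under 0.05. Short dynein and dynactin subunits lie below 0 at the left and long centrosomal and motor genes above 0 at the right, with rho 0.662 and 0.658.

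In wounded cells the cortical fraction again had more Cep170b, Kif26a, Cep162 and Cep192 and less of the small dynactin subunits. Clasp2 was higher there and the dynamitin gene Dctn2 lower. Of the 99 members, 26 (26.3%) were called, against 15.7% of all genes tested, 20 of them higher and 6 lower (7.62% and 8.03% of all genes tested). The median of the members was 0.28, beside 0.04 for all genes tested. Of the 13571 genes tested, 2200 had every wounded cortical library above every wounded total one, and 1757 had every one below. With library size scaling, which put the median of all genes at 0.25, the calls were 33 higher and 4 lower (20.1% of all genes tested were called), and with the coding length trend removed they were 5 higher and 8 lower (10.5% of all protein-coding genes tested). Without wounded total replicate 1 there were 41 calls, 31 higher and 10 lower, while the share of all genes tested that were called went from 15.7% to 25.7%.

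Cep170b was 2.74-fold higher in the wounded cortical fraction (log2 1.45, SE 0.11, adjusted p = 1.81e-06, edgeR). Cep162 was at 4.98, 7.52 and 7.36 CPM in wounded total and 18.7, 15 and 12.5 in wounded cortical, a log2 difference of 1.22 (SE 0.21, adjusted p = 0.0015). Cep192 was at 27.2, 18 and 21.6 CPM in wounded total and 45.2, 47.2 and 42.1 CPM in wounded cortical, a log2 difference of 1.01 (SE 0.15, adjusted p = 0.000619). Neither gene's cortical libraries overlapped its total libraries. Of the other centrosomal genes called, Cep135, a centriole core protein, was at only 0.712, 1.57 and 0.674 CPM in wounded total and 1.67, 3.21 and 3.48 CPM in wounded cortical, a log2 difference of 1.48 (SE 0.48, adjusted p = 0.046). Its call was kept under 6 of the 24 alternative settings, and without wounded total replicate 1 the log2 difference was 1.29 (adjusted p = 0.0653). The summed centrosomal level was 78.8 ± 6.42 FPKM in wounded total and 114 ± 0.781 in wounded cortical.

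Of 20 other kinesin genes tested, 7 (35%) were called in the wounded cortical fraction, all higher, against 15.7% of all genes tested (7.62% higher). Kif26a was at 27.1, 9.43 and 10.9 CPM in wounded total and 37.2, 43.3 and 44.2 CPM in wounded cortical. Its total libraries were uneven, with replicate 1 the highest, yet all 3 lay below the cortical ones (log2 1.40, SE 0.28, adjusted p = 0.00356), and without replicate 1 the log2 difference was 2.04 (adjusted p = 1.65e-08). Kif24, which shortens microtubules and restrains cilium growth, had the largest difference, 1.76 (SE 0.50, adjusted p = 0.0242), at 0.534, 0.842 and 1.16 CPM in wounded total and 4.44, 2.01 and 2.16 CPM in wounded cortical. The other called kinesin genes were Kif1bp (0.58), the cilium motor Kif17 (0.57), Kif21b (0.41), Kif13a (0.40) and Kif1c (0.33). In that order their calls were kept under 10, 19, 6, 14 and 14 of the 24 alternative settings, and that of Kif24 under 15 of 23. With the coding length trend removed, 1 of the 20 was called higher and 1 lower, and their median turned from 0.36 to -0.03.

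At the microtubule ends Clasp2, which stabilises growing plus ends at the cortex, and Camsap1 were called. Clasp2 (ENSMUSG00000033392, chr9:113741473-113919682) was at 9.08, 9.83 and 7.54 CPM in wounded total and 15.5, 20.0 and 19.9 CPM in wounded cortical, against 15.4, 14.9 and 16 CPM in unwounded total and 16.6, 16.3 and 10.9 CPM in unwounded cortical. The wounded total libraries were the low ones: they lay below every other library of the gene. The log2 difference was 1.06 (SE 0.20, adjusted p = 0.00224) in wounded cells and -0.07 (SE 0.20, adjusted p = 0.887) in unwounded cells. Camsap1 differed by 0.52 (SE 0.12, adjusted p = 0.00751).

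Of the 14 dynein and dynactin genes, 2 were higher and 6 lower in the wounded cortical fraction. Dync1h1 (ENSMUSG00000018707, chr12:110601452-110666945) was at 36.8, 28.5 and 36.2 CPM in wounded total and 56.8, 56.8 and 56.5 CPM in wounded cortical, a log2 difference of 0.74 (SE 0.13, adjusted p = 0.00137), and Dync2h1, the heavy chain of cilium dynein, differed by 0.68. Dctn6 (ENSMUSG00000031516, chr8:34090420-34108796) was at 84.3, 70.4 and 64.7 CPM in wounded total and 41.3, 40.4 and 45.2 CPM in wounded cortical, a log2 difference of -0.79 (SE 0.12, adjusted p = 0.000723). Dctn2, whose product dynamitin joins the dynactin shoulder to its filament, was at 401, 486 and 515 CPM in wounded total and 285, 308 and 301 CPM in wounded cortical, a log2 difference of -0.65 (SE 0.11, adjusted p = 0.00113). For each of these 3 genes the fractions did not overlap. Dctn3 (-0.75), Dctn5 (-0.61), Dynll2 (-0.59) and Dynll1 (-0.39) were the other lower genes. With library size scaling the median of the 14 turned from -0.19 to 0.01, and Dctn2, Dctn3, Dctn6 and Dynll2 kept their call. With the coding length trend removed, 8 of the 26 wounded calls remained, namely Cep170b, Cep162, Cep192, Kif26a, Clasp2, Dctn2, Dctn3 and Dctn6, while Dync1h1 was at 0.04 (adjusted p = 0.872) and Dynll1 at 0.04 (adjusted p = 0.876).

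The test of the difference between the fraction effects, taken as the log2 fold of cortical over total in wounded cells minus the same in unwounded cells, called 0 of the 99 members with edgeR, against 0.125% of all genes tested. At an unadjusted p under 0.05 there were 12 members, DESeq2 called 2 (Cep170b and Tuba4a) and limma on FPKM 0. The Cep170b excess was 4.35-fold in unwounded and 2.74-fold in wounded cells, a log2 difference of -0.67 (SE 0.16, adjusted p = 0.202), and the same difference for Clasp2 was 1.14 (SE 0.28, adjusted p = 0.244). Without wounded total replicate 1, 3.15% of all genes tested and 6 members were called: Cep170b (log2 -0.71, adjusted p = 0.00748), Kif23 (log2 0.88, adjusted p = 0.00836), Dctn2 (log2 -0.49, adjusted p = 0.0251), Tuba4a (log2 0.49, adjusted p = 0.0258), Clasp2 (log2 1.15, adjusted p = 0.0272) and Tubb6 (log2 0.51, adjusted p = 0.0341).

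Wounding lowered 4 tubulin genes in the total fraction and raised dynein and dynactin genes. Tuba1c, Tuba4a, Tubb6 and Tubb4b fell to 0.554, 0.604, 0.611 and 0.626 times their unwounded level, while Dctn2, Dctn4, Dync1i2, Dctn6 and Pafah1b1 rose and Dynll1 fell. Of the 99 members 21 (21.2%) were called, against 15.6% of all genes tested, 8 higher and 13 lower in wounded cells (8.39% and 7.2% of all genes tested), with a median of -0.15 beside -0.03 for all genes. Library size scaling gave 4 higher and 17 lower (13.4% of all genes tested were called), and there Dctn2 and Dync1i2 kept their call while the calls of Dctn4, Dctn6 and Pafah1b1 were lost. Without wounded total replicate 1 there were 38 calls, 13 higher and 25 lower, while the share of all genes tested that were called went from 15.6% to 26.1%. This comparison shares its unwounded total libraries with the first comparison and its wounded total libraries with the second, so a gene's values in them are not independent. Of the 13571 genes tested, 1971 had every wounded total library above every unwounded total one, and 2383 had every one below.

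**Figure D4:**
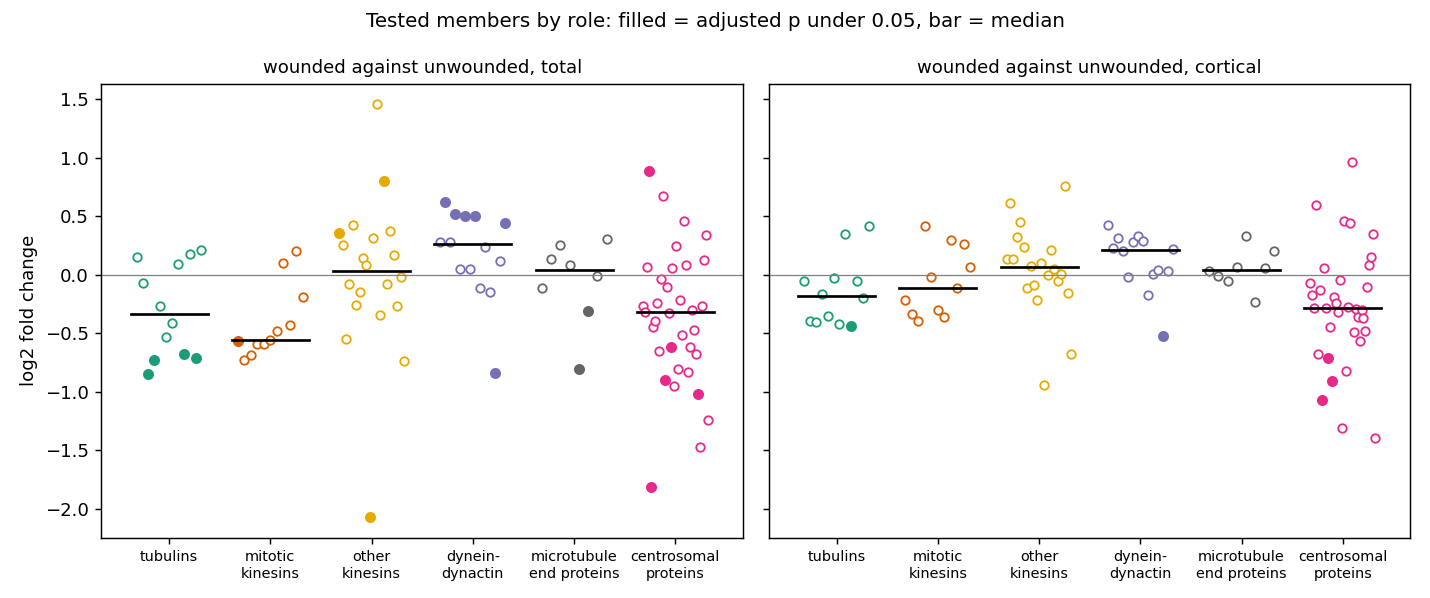
Log2 fold change of wounded against unwounded cells (vertical axis) for the 99 tested members by role, in the total fraction (left) and the cortical fraction (right); filled points had an adjusted p under 0.05 and bars are medians. All 4 called tubulins in the total fraction lie below 0 and 5 of 6 called dynein and dynactin genes lie above it, and in the cortical fraction all 5 called members lie below 0.

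Tuba1c (ENSMUSG00000043091, chr15:99029891-99038110), an alpha-tubulin, was at 153, 151 and 175 CPM in unwounded total and 73.6, 91.9 and 100.05 CPM in wounded total, a log2 change of -0.85 (SE 0.12, adjusted p = 0.000254, edgeR). Tubb4b (ENSMUSG00000036752, chr2:25222160-25224702), a beta-tubulin found in most cells, was at 338, 320.1 and 377 CPM in unwounded total and 228, 202 and 217 CPM in wounded total, a change of -0.68 (SE 0.10, adjusted p = 0.000359). Tubb6, a beta-tubulin, was at 160.1, 156 and 160.1 CPM in unwounded total and 96.2, 98.2 and 96.4 CPM in wounded total, a change of -0.71 (SE 0.10, adjusted p = 0.00018). In all 3 genes every wounded library was below every unwounded one, and so it was for Tuba4a (ENSMUSG00000026202, chr1:75214228-75219865), with a change of -0.73 (adjusted p = 0.000202). The calls of these 4 genes held under all 24 alternative settings. The 2 most abundant isotypes were not called in the main fit: Tubb5 changed by 0.18 (SE 0.10, adjusted p = 0.286) and Tuba1b by -0.07 (SE 0.14, adjusted p = 0.801). Without wounded total replicate 1, Tubb5 was called higher on wounding (log2 0.27, adjusted p = 0.0139), as was Tubg1 (log2 0.31, adjusted p = 0.0128), opposite in direction to the 4 genes that fell. Tubb5 was also called higher after removal of the gene length trend (log2 0.27, adjusted p = 0.0168) and with the coding length trend removed (log2 0.26, adjusted p = 0.0151).

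Summed tubulin was 1263 ± 52.5 FPKM in unwounded total (mean ± SD, n = 3). In wounded total replicates 1 to 3 it was 1007, 1251 and 1251 FPKM, so replicate 1 was the low library and the other 2 lay within the range of the unwounded libraries, 1207 to 1312 FPKM.

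**Figure D5:**
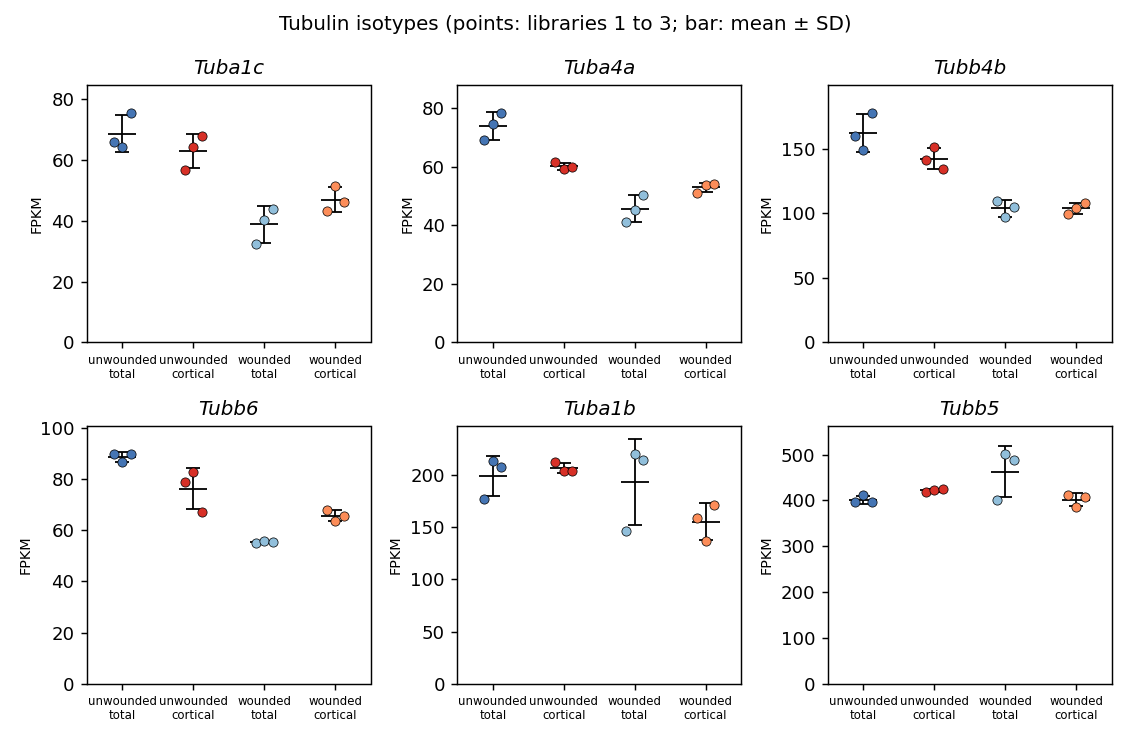
Level in FPKM (vertical axis, from 0) of 6 tubulin isotypes in each of the 12 libraries by group, with the group mean and SD. Tuba1c, Tuba4a, Tubb4b and Tubb6 are lower in wounded than in unwounded total libraries, whereas for Tuba1b and Tubb5 these libraries overlap.

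Among dynein and dynactin genes Dctn2 rose from 317, 309 and 288 CPM in unwounded total to 401, 486 and 515 CPM in wounded total, a log2 change of 0.62 (SE 0.11, adjusted p = 0.00105). Pafah1b1 rose from 104, 96.8 and 120.0 CPM to 151, 142 and 142 CPM, a change of 0.44 (SE 0.10, adjusted p = 0.00699). Neither gene's groups overlapped. Dctn4, a pointed-end subunit (0.52), Dync1i2 (0.50) and Dctn6 (0.50) rose as well. Dynll1 went the other way, at 279.8, 311 and 273 CPM in wounded total, a change of -0.84 (SE 0.13, adjusted p = 0.00038), and its wounded libraries all lay below its unwounded ones. Dynll2, its close relative, changed by 0.11 (SE 0.15, adjusted p = 0.686). Coding length had no such relation to the wounding change in the total fraction, with a rho of -0.0902 over the 99 members.

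Of the 20 other kinesin genes tested, 3 (15%) were called, 2 higher and 1 lower, against 15.6% of all genes tested. Kif3a, a motor subunit of kinesin-2 that serves cilia, rose from 20.5, 19.5 and 25.3 CPM to 38.1, 35.3 and 40.3 CPM (0.80, SE 0.14, adjusted p = 0.00105), with no overlap. Kif13a rose by 0.36 (adjusted p = 0.0474), a call kept under 8 of the 24 alternative settings, and without wounded total replicate 1 its change was 0.27 (adjusted p = 0.0929). Kif24 fell from 2.5, 3.89 and 4.36 CPM to 0.534, 0.842 and 1.16 CPM (-2.07, SE 0.50, adjusted p = 0.0101). Clasp2 (-0.81) and the plus-end binding gene Mapre1 (-0.31) fell. Of 34 centrosomal genes tested, 5 (14.7%) were called, 1 higher and 4 lower, against 15.6% of all genes tested (8.39% higher and 7.2% lower). Cep131, a centriolar satellite protein, rose by 0.89, and Cep135 (-1.81), Cep85 (-1.02), Cep192 (-0.90) and Cep295 (-0.61) fell. Cep295 overlaps Taf1d on the other strand.

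The count of kinesins of cell division that were called moved with 1 library. With all 12 libraries 1 of 11 was called lower on wounding in the total fraction, beside 7.2% of all genes tested. This was Kif11, the motor that pushes spindle poles apart (-0.56, SE 0.16, adjusted p = 0.0229), and the median of the 11 was -0.55. The Kif11 call was kept without wounded total replicate 1, at -0.69 (adjusted p = 0.00356). It was lost without unwounded total replicate 1 (-0.55, adjusted p = 0.0888) or 3 (-0.48, adjusted p = 0.098), without wounded total replicate 2 (-0.56, adjusted p = 0.0689) or 3 (-0.45, adjusted p = 0.106), after removal of the gene length trend (-0.43, adjusted p = 0.0799), also when the replicate block was added (-0.44, adjusted p = 0.0887), and with only the groups compared in the fit (-0.55, adjusted p = 0.0929). Without wounded total replicate 1, 8 of 11 were lower with a median of -0.85, beside 26.1% of all genes tested that were called in either direction. In the cortical-against-total comparison of wounded cells without that library 8 of 11 were higher with a median of 0.77, beside 25.7% of all genes tested, where the 12 libraries gave 1 and 0.39. Kif23, a motor of the central spindle, chosen after its values were seen, shows the pattern at 44.3, 17.9 and 18.6 CPM in wounded total replicates 1 to 3, against 38.9, 33.8 and 36 CPM in unwounded total, 35.7, 36 and 37.4 CPM in unwounded cortical and 31.7, 34.5 and 34.6 CPM in wounded cortical. Replicate 1 was the highest of all 12 libraries and the other 2 were the lowest. Its log2 change in the total fraction was -0.43 (adjusted p = 0.265) with that library and -0.99 (adjusted p = 9.13e-06) without it. Kif22 and Kif2c, the 2 most abundant of these kinesins, changed by 0.10 and 0.20 with all libraries. Of 12 other proliferation genes tested, edgeR called 1 lower and 0 higher on wounding in the total fraction (Cdk1, log2 -0.43, adjusted p = 0.00828). Of all genes tested, 7.2% were lower and 8.39% higher. The median of the 12 was -0.30, with a positive change in 1 of them and an unadjusted p under 0.05 (edgeR) in 7. Their values without wounded total replicate 1 are not given here.

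In the cortical fraction centrosomal genes led the few members called on wounding. Of the 99 tested 5 (5.05%) were called, against 2.48% of all genes tested, and all 5 were lower in wounded cells (0.884% of all genes tested were lower and 1.6% higher): Cep162 (-1.07, SE 0.21), Cep192 (-0.91, SE 0.15), Cep170b (-0.71, SE 0.11), Dynll1 (-0.52, SE 0.13) and Tubb4b (-0.44, SE 0.10). Their adjusted p-values were 0.0105, 0.00326, 0.00311, 0.035 and 0.0284. The calls of Dynll1 and Tubb4b were lost whichever cortical library was left out, and each was kept under 17 of the 24 alternative settings. That of Cep162 was kept under 21 of 24, and was lost without unwounded cortical replicate 2 or wounded cortical replicate 2 or 3. Cep192 was at 77.6, 80.8 and 94.9 CPM in unwounded cortical and 45.2, 47.2 and 42.1 CPM in wounded cortical, and in the total fraction it changed by -0.90 (SE 0.15). Cep170b differed by -0.04 (SE 0.11, adjusted p = 0.87) in the total fraction. The median of the members in the cortical fraction was -0.05, beside 0.02 for all genes. With wounded total replicate 1 left out, which changes the shared estimate of the spread, 15 members were called, 3 higher and 12 lower, while the share of all genes tested that were called went from 2.48% to 9.51%.

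Other genes of the same machinery were read from lists of related genes. Their counts stand beside the shares of all genes tested: 6.62% higher and 7.59% lower in the unwounded cortical fraction, 7.62% and 8.03% in the wounded one, and on wounding 8.39% and 7.2% in the total and 1.6% and 0.884% in the cortical fraction. The lists, here and in the next paragraph, were read with all 12 libraries and without removal of the coding length trend. With that trend removed, 7 of 20 unwounded and 8 of 26 wounded cortical-to-total calls of the members remained. How many calls of the lists would remain then, or without wounded total replicate 1, was not tested. In the list of gamma-tubulin complex genes and their anchors (11 tested), 1 was higher and 1 lower in the unwounded cortical fraction: Akap9, a large scaffold of the Golgi and centrosome (log2 0.57, adjusted p = 0.0208), and Mzt2, a small subunit of the gamma-tubulin complex (log2 -0.71, adjusted p = 0.00308). In wounded cells 2 were higher and 1 lower, among them Akap9 (log2 1.36, adjusted p = 0.000106) and Mzt2 (log2 -0.84, adjusted p = 0.00104). Akap9 was also the 1 gene of this list called higher on wounding in the cortical fraction (log2 0.95, adjusted p = 0.00326). Of 15 further dynein chains, adaptors and regulators, 0 were higher and 2 lower in unwounded cells, the light chains Dynlrb1 (log2 -0.79, adjusted p = 0.00102) and Dynlt1b (log2 -0.61, adjusted p = 0.0146), and 1 was lower in wounded cells, Dynlrb1 (log2 -0.69, adjusted p = 0.00256). Of 11 further centriole and pericentriolar genes, edgeR called 1 in the 4 group comparisons, Plk4, the kinase of centriole duplication, higher in the wounded cortical fraction (log2 0.84, adjusted p = 0.00272).

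Of 9 kinesin partners, 3 rose and 0 fell on wounding in the total fraction (8.39% and 7.2% of all genes tested), led by the light chain Klc4 (log2 1.20, adjusted p = 2.8e-05) and by Kifap3, the adaptor of kinesin-2 (log2 0.89, adjusted p = 0.00442). Of 16 microtubule-associated genes, 4 rose and 1 fell in that comparison, among them Map4 (log2 0.72, adjusted p = 0.00029), which stabilises microtubules, and Stmn1 (log2 -0.59, adjusted p = 0.00363), whose product stathmin binds free tubulin. Stmn1 was also lower in the cortical fraction of unwounded cells (log2 -1.004, adjusted p = 0.000121). Of 6 tubulin folding cofactors, 1 was higher and 1 lower in the cortical fraction of unwounded cells, Tbcd (log2 0.37, adjusted p = 0.0278) and Tbcb (log2 -0.71, adjusted p = 0.00387). In wounded cells 0 were higher and 2 lower, Tbcb (log2 -0.86, adjusted p = 0.00121) and Tbca (log2 -0.50, adjusted p = 0.0256). Of 16 tubulin-modifying and microtubule-severing enzymes, 1 was lower in the unwounded cortical fraction, Svbp (log2 -0.69, adjusted p = 0.0208), a partner of the enzymes that remove the last tyrosine of alpha-tubulin, and 1 was higher and 1 lower in the wounded one, the deacetylase Hdac6 (log2 0.51, adjusted p = 0.0416) and the ligase-like Ttll12 (log2 -0.35, adjusted p = 0.0149).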

How the data were processed

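The authors deposited 1 table of raw fragment counts and 1 table of FPKM values (counts divided by gene length and library size) for all 12 libraries, per the file headers and the values. The submitters' processing notes name CASAVA, HISAT2 and the build mm10; the counting tool and annotation release are not given in the sources used here. Messenger RNA was selected on poly-T beads and the libraries were non-directional, per the labels. Of the 117 members, 110 had the same coordinates and strand in GENCODE M21. Every column of per-sample values was used (0 left out).

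The raw counts were fitted with edgeR 4.0.16 under R 4.3.3 (filterByExpr, TMM factors of 0.831 to 1.1, 1 model with a mean per group, quasi-likelihood F test, two-sided). P-values were adjusted by Benjamini-Hochberg over the 13571 genes of each of the 5 contrasts and called under 0.05. CPM values are scaled by TMM factors, and SE is that of the log2 fold change. Limma 3.58.1 on log2(FPKM + 1), where a fold change understates that of low genes, and DESeq2 1.42.0 were alternatives, with other scalings, filters, a replicate block, a gene length trend (loess, span 0.5) and each library left out; a coding length trend was added after seeing the data. Scripts were tested on simulated counts in which 189 of 13106 genes differed by a log2 of 1 between the unwounded fractions. There edgeR recovered 60.8% of the 189, and 6.5% of its calls were false. DESeq2 recovered 61.4% with 16.5% of its calls false, and limma on log2(FPKM + 1) 44.4% with 10.6% false. Figures used matplotlib 3.10.9.

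The members and lists were chosen with earlier results of these data known. Named members were Nin, Pafah1b1, Dynll1 and Dynll2, the 2 with the highest FPKM in each role, and up to 3 called members per direction in each role and contrast; further called members are given as short values, and genes outside the members by lists of related genes.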

Additional observations from a re-analysis of the deposited data

How the results depend on the processing

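Of the 72 calls in the 4 group comparisons, 27 held under all 24 alternatives and 37 under all 12 settings that left out a library. Those that held under all 24 were Kif26a, Dctn3, Cep162, Cep170b and Cep192 (unwounded, cortical against total); these 5 with Dctn2, Dctn6 and Clasp2 (wounded, cortical against total); Tuba1c, Tuba4a, Tubb4b, Tubb6, Kif24 (under the 23 that tested it), Kif3a, Dctn2, Dync1i2, Dynll1, Cep131, Cep192 and Cep295 (wounding, total); and Cep170b and Cep192 (wounding, cortical). The other 10 that held whichever library was left out were Kif13a, Kif21b, Dctn6, Dynll1 and Cep350 (unwounded), Dync1h1, Camsap1 and Cep164 (wounded) and Dctn6 and Pafah1b1 (wounding, total). Leaving out 1 library gave 12 to 28 calls in unwounded cells, 14 to 41 in wounded cells, 16 to 38 for wounding in the total and 2 to 15 in the cortical fraction, and 0 to 6 for the difference of fraction effects; the upper end always came without wounded total replicate 1. In unwounded cells the calls went from 20 to 11 with the gene length trend removed (also with the replicate block added) and to 7 with the coding length trend removed. In wounded cells they went from 26 to 12 with only the groups compared in the fit, to 17 with limma on FPKM plus 1 or plus 0.1, to 17 with the gene length trend removed and the replicate block, and to 13 with the coding length trend removed. For wounding in the cortical fraction they went from 5 to 10 without a filter or with DESeq2, to 19 with only the groups compared, to 9 with the gene length trend removed (with or without the block) and to 11 with the coding length trend removed. For the difference of fraction effects, no filter and each length trend gave 1 call and DESeq2 gave 2. The causes of these shifts were not tested. Among the called members named, those whose difference changed sign did so with the coding length trend removed: Dync1h1 in unwounded cells (-0.0269), and Dync2h1 (-0.0061), Dynll1 (0.0413), Kif13a (-0.0583), Kif1c (-0.0234), Kif21b (-0.0301) and Cep295 (-0.1269) in wounded cells. The titles do not say whether libraries with the same replicate number came from 1 preparation. Correlations of same-numbered deviations ran from -0.0331 to 0.0913, which cannot settle this. With the replicate block the calls were 19, 20, 21, 4 and 0 in the order of the comparisons above.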
